A study of Mus musculus with 28 samples.

Results

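The 9 genes described here, Gfap, Aqp4, Aldh1l1, S100b, Slc1a2, Gja1, Agt, Mlc1 and Gjb6, are widely used markers of astrocytes, the glial cells that contact synapses and blood vessels throughout the brain. They were picked by gene symbol, as a list of markers. All 9 were among the 14104 genes listed for adult prefrontal cortex (PFC), and 7 were found among the 13846 genes listed for embryonic cortex, where Agt and S100b were not analysed here. After a filter that asked for at least 1 CPM (counts scaled to a common library total) in at least 6 PFC or 4 embryonic libraries, 9 members of 12870 tested genes remained in the PFC and 5 of 12429 in the embryo.

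Astrocytes arise from radial glia after most cortical neurons have been made, so an embryonic cortex in the middle of neurogenesis holds few or none of them. Mature astrocytes clear glutamate from synapses, buffer ions and water at their endfeet on vessels, and are joined to each other by gap junctions. Several marker genes, Gja1 among them, are also used by radial glia or by other cells, including those of the meninges.

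The libraries came from a Myt1l knockout line of mice; Myt1l is the gene of a zinc-finger transcription factor made by neurons, and the study asked how its loss alters the transcriptome. Embryonic cortex was sampled at E14.5, an age in embryonic days, from 6 wild type (WT), 6 heterozygous (Het) and 4 homozygous (Hom) embryos, of which 5, 3 and 3 were labelled female. Adult PFC was sampled from 6 WT and 6 Het mice, 3 females and 3 males in each group. The sources used here give no strain, allele design, adult age or treatment. Nothing in the labels states outright that the libraries of a group are separate litters or dissections. P-values therefore measure the spread between these libraries, as left by the authors' adjustment of the values. In whole tissue, fewer cells of a type and less RNA per cell cannot be told apart.

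Myt1l itself averaged 55.5 ± 8.16 CPM in WT embryos (SD, n = 6), 42.8 ± 11.1 in Het (n = 6) and 20.2 ± 2.35 in Hom (n = 4). In the PFC it averaged 158 ± 8.48 CPM in WT and 114 ± 6.70 in Het (SD, n = 6 each). The fall passed the test in Hom embryos (log2 change -1.43, limma adjusted p = 1.1e-04) and in Het adults (-0.47, limma adjusted p = 1.4e-04), and did not in Het embryos (limma adjusted p = 0.125). The summed CPM of 4 Y-linked genes went against the labelled sex of the embryonic libraries Het F10, at 58.7, and Het M11, at 0. No member was called when these libraries were left out. The neuronal marker Rbfox3 and the myelin gene Mbp averaged 156 and 1762 CPM in WT PFC, and the radial glia gene Pax6 averaged 100.03 CPM in WT embryonic cortex. Sequencing depth is unknown, because the deposited values had already been scaled and adjusted.

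Promoter sequences are shown for Gja1 and Gfap, because Gja1 was the one member with the core motif of MYT1-family proteins and Gfap holds a STAT motif beside its start. Each run covers 250 bases before the annotated start and 10 from it, 5′ to 3′ on the gene's strand, counted from RefSeq's start on GRCm38.p6. The capitals mark AAACTTT, the reverse complement of the MYT1-family motif AAAGTTT, in Gja1 (chr10:56377050-56377309, plus strand), and a match to the STAT motif TTCNNNGAA in Gfap (chr11:102897191-102897450, minus strand).
Gja1: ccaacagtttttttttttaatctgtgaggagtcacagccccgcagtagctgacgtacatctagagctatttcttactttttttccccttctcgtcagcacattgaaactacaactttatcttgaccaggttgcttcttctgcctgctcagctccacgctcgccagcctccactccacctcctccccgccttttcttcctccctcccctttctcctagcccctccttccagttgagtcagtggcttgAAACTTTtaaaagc
Gfap: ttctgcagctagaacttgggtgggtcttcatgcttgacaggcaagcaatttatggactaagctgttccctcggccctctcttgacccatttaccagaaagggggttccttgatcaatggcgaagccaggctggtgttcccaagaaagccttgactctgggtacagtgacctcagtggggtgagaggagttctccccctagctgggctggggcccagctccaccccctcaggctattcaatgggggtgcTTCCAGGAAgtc
RefSeq promoters of 300 bases were matched for 8 of 9 members and searched on both strands. AAAGTTT was found in 1 of the 8 and in 4.74% of 32851 promoters. TTCNNNGAA was found in 2 of the 8, Gfap and Agt, and in 8.30% of all promoters. The motif TTGGC, 1 arm of the palindrome bound by nuclear factor I, was found in 4 of the 8 and in 46.7% of all, and the full palindrome in 0 of the 8 and in 0.0365% of all. A match describes letters only and is neither a bound site nor a cause.

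All 9 members are protein coding in the mouse annotation GENCODE vM21 on GRCm38. Slc1a2 spans chromosome 2 from 102658659 to 102790784, Aldh1l1 chromosome 6 from 90486427 to 90600203, Gja1 chromosome 10 from 56377330 to 56402513, and S100b chromosome 10 from 76253853 to 76261159, all on the plus strand. Agt spans chromosome 8 from 124556534 to 124569706, Gfap chromosome 11 from 102887336 to 102900912, Gjb6 chromosome 14 from 57123303 to 57133611, Mlc1 chromosome 15 from 88955884 to 88979007 and Aqp4 chromosome 18 from 15389496 to 15410982, all on the minus strand. Exons of Aldh1l1 overlap Gm15756 and Gm45901, and exons of Slc1a2 overlap Gm13872. The sources used here do not say whether counting used the strand, so reads of these overlapping genes cannot be told apart.

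In WT adult PFC every member was well detected, and the calcium-binding protein gene S100b had the highest level per length. On a scale of CPM per kb of the longest transcript, S100b averaged 153 ± 14.3 (SD, n = 6), followed by Mlc1 at 87.2 ± 3.58, Gjb6 at 71.1 ± 7.00, Gja1 at 64.9 ± 2.16, Gfap at 52.4 ± 5.83 and Slc1a2 at 45.1 ± 3.31. Aqp4 averaged 21.5 ± 3.12, Aldh1l1 13.8 ± 0.539 and Agt 5.07 ± 0.704 CPM per kb. Library ranges of Gjb6 and Gja1, of Gja1 and Gfap, and of Gfap and Slc1a2 overlapped, and those of the other neighbours in this order did not.

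In WT E14.5 cortex the order was different. Gja1, the gene of the gap junction protein connexin 43, averaged 55.3 ± 15.9 CPM per kb (SD, n = 6), above Gjb6 at 6.47 ± 2.05, Mlc1 at 4.00 ± 1.12, Aldh1l1 at 1.39 ± 0.486 and Slc1a2 at 0.785 ± 0.160. Aqp4 averaged 0.134 ± 0.0583 CPM per kb. Ranges of Gjb6 and Mlc1, of Aldh1l1 and Slc1a2, and of Aqp4 and Gfap overlapped.

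Set side by side as WT means, the embryonic level of Gja1 was 85.2% of the adult one, that of Aldh1l1 10.1%, Gjb6 9.09%, Mlc1 4.59%, Slc1a2 1.74% and Aqp4 0.622%. The 2 tables were scaled and adjusted separately, so these shares were not tested. Gfap, the intermediate filament gene, was listed at 0 in 4 of 6 WT embryonic libraries, against 125 to 167 CPM in WT PFC. At E14.5 its highest level was 0.870 CPM, in Het F07, and a gene at 0 could have held up to 0.103 CPM, the worth of 3 of the smallest steps in the table. The 4 Hom libraries listed Gfap at 0.307, 0.716, 0.270 and 0.0337 CPM, so both mutant groups overlapped WT. Aqp4, the water channel gene of endfeet, ranged from 0.0335 to 1.06 CPM over the 16 embryonic libraries. Neither gene passed the filter in the embryo. Without the filter, neither was called against WT: the limma adjusted p was 0.416 in Hom and 0.652 in Het for Gfap, and 0.787 and 0.542 for Aqp4.

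**Figure D1:**
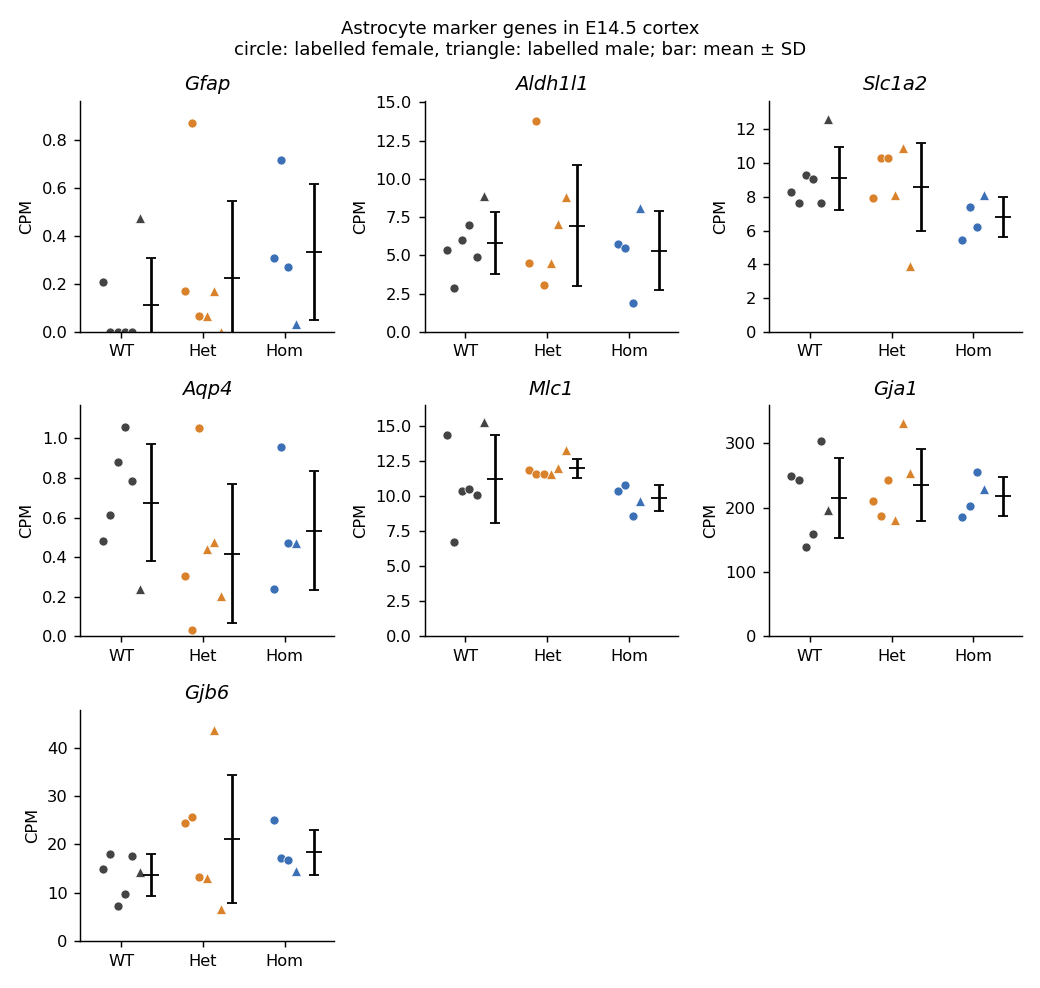
Levels in CPM (vertical axes, scales differ between panels) of the 7 members listed for E14.5 cortex, by genotype (horizontal axis). Each circle is a library labelled female and each triangle a library labelled male, and bars give the mean and SD. Gja1 lies between 139 and 332 CPM, while Gfap stays at or under 0.870 CPM, and the 3 genotypes overlap in every panel except Mlc1, where each Hom library lies below each Het library.

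In Hom embryos no tested member passed the threshold. With limma and an adjusted p under 0.05, 0 of 5 members were called for Hom against WT, where 7.6% of all tested genes were called. None of the 5 had an unadjusted p under 0.05, against 23.2% of all tested genes, and limma-voom on the recovered numbers called 0 of 5 too. Groups without overlap were seen for 0 of 5 members, against 9.9% of all tested genes. The members' median log2 change was -0.15, beside 0.02 over all tested genes.

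Slc1a2, the gene of the main glutamate transporter GLT-1, ranged from 7.66 to 12.6 CPM in WT with a median of 8.69. In Het it ranged from 3.92 to 10.9 CPM with a median of 9.20, and the Hom libraries held 5.47, 7.40, 6.22 and 8.11 CPM. All 4 Hom libraries lay below the WT mean, yet the groups overlapped. The log2 change of Hom against WT was -0.39 (SE 0.21, 95% interval -0.83 to 0.05, limma adjusted p = 0.277).

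Gjb6, the gene of connexin 30, had the highest coefficient of variation among the 5 tested members in Het embryos, 63.0%. WT libraries ranged from 7.25 to 18.0 CPM with a median of 14.6. The Het libraries held 24.4 (F02), 25.7 (F07), 13.2 (F10), 13.0 (M01), 43.7 (M07) and 6.52 CPM (M11), and the Hom libraries 25.1, 17.1, 16.7 and 14.4. Het M07 and Het M11 were the highest and the lowest of all 16 libraries. The log2 change was 0.52 for Het against WT (limma adjusted p = 0.510) and 0.47 for Hom against WT (SE 0.44, 95% interval -0.48 to 1.43, limma adjusted p = 0.568).

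Het M07 was also the highest library for Gja1, at 332 CPM, and for the summed level of 10 meningeal genes, at 562 CPM. It was the highest as well for the sums of choroid plexus, microglial and oligodendrocyte lineage genes, at 5393, 102 and 106 CPM. Other libraries did not follow the meningeal sum. Het M11, the lowest for Gjb6, had a meningeal sum of 373 CPM and Gja1 at 254 CPM. Het F02 had a meningeal sum of 484 CPM and Gja1 at 210 CPM. WT F06 was the lowest for Gja1, at 139 CPM, and for the meningeal sum, at 212 CPM, and was the lowest WT library for Gjb6. Its microglial sum, at 56.4 CPM, was the lowest too. All 10 meningeal genes were listed, and their sum ranged from 212 to 470 CPM in WT, 317 to 562 in Het and 365 to 421 in Hom. The sum of 9 listed choroid plexus genes ranged from 1484 to 4166 CPM in WT, 3117 to 5393 in Het and 1660 to 3017 in Hom. Of the meningeal genes, 2 of 10 passed the test as higher in Het, Ogn (log2 change 0.76) and Aldh1a2 (0.73), while 0 of 9 tested choroid plexus genes did. Over all tested genes, 5.83% were called for Het against WT, 353 of 12429 as higher. The part of meninges and choroid plexus in the connexin levels was not tested.

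Gja1 ranged from 139 to 303 CPM in WT with a median of 220, from 182 to 332 in Het with a median of 227, and held 185, 203, 255 and 228 CPM in Hom. Its log2 change was 0.05 in Hom (95% interval -0.43 to 0.54) and 0.11 in Het (95% interval -0.35 to 0.57), both against WT (limma adjusted p = 0.922 and 0.816). Aldh1l1, the folate enzyme gene that marks most astrocytes, averaged 5.82 ± 2.03 CPM in WT (SD, n = 6), 6.95 ± 3.94 in Het (n = 6) and 5.30 ± 2.58 in Hom (n = 4), within the spread of each group. Its log2 change in Hom against WT was -0.24 with an interval from -1.04 to 0.56, so a difference of this size was not resolved.

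Mlc1, the gene of an endfoot membrane protein, was even in Het embryos, at 11.5 to 13.3 CPM, and spread in WT, at 6.70 to 15.3. The Hom libraries held 10.4, 10.8, 8.62 and 9.66 CPM. The log2 change was -0.15 for Hom against WT (95% interval -0.48 to 0.18, limma adjusted p = 0.613) and -0.23 for Hom against Het (95% interval -0.57 to 0.11, limma adjusted p = 0.959). Each Hom library lay below each Het library, although this difference did not pass the test. Mlc1 was 1 of 5 members without overlap between Hom and Het, against 0.901% of all tested genes.

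For Het against WT at E14.5, 0 of 5 members were called by limma, against 5.83% of all tested genes, with 0 of 5 and 22.3% at an unadjusted p under 0.05 and 0 of 5 by voom. No member had groups without overlap, against 2.57% of all tested genes. For Hom against Het, 0 of 5 were called and 0.00805% of all tested genes were, with 0 of 5 and 5.12% at an unadjusted p under 0.05 and 0 of 5 by voom. The members' median log2 change was 0.08 in Het against WT, beside 0.03 over all tested genes, and -0.22 in Hom against Het, beside -0.01. These embryonic comparisons share libraries, so they are not independent of each other.

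Some other astrocyte genes passed the test in the embryo. Of 28 further genes that astrocytes express strongly, 25 were tested at E14.5. In Hom 5 passed the test as lower and in Het 4, with 0 higher in either. Of all 12429 tested genes, 543 passed as lower in Hom and 371 in Het. In either direction, 7.6% of all tested genes were called in Hom and 5.83% in Het. The list was chosen with earlier results of these data known. Cbs, a gene of sulfur amino acid metabolism, and Ndrg2 were lower in both mutants. Cbs averaged 32.1 ± 3.09 CPM in WT, 24.0 ± 1.03 in Het and 22.9 ± 3.16 in Hom, with log2 changes of -0.43 and -0.49 (limma adjusted p = 0.0115 and 0.00627). Ndrg2 averaged 381 ± 33.6, 323 ± 15.9 and 318 ± 15.3 CPM in the same order, with log2 changes of -0.25 and -0.26 (limma adjusted p = 0.0211 and 0.0205). Aldoc, a glycolytic enzyme gene, and the acyl-CoA synthetase gene Acsbg1 were lower in both mutants as well, and Clu was the fifth gene called in Hom. The median log2 change over the 25 was -0.07 in each mutant, beside 0.02 and 0.03 over all tested genes. Many of these genes are also expressed by radial glia. Among 10 tested radial glia genes 1 was higher, Sox2, and 1 lower, Prom1, in Hom, and 0 passed in Het. Over all tested genes, 7.6% were called in Hom and 5.83% in Het.

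Genes that work beside the members did not pass in the embryo. For Hom against WT, 0 of 12 endfoot and junction partners, 0 of 7 genes of reactive astrocytes and 0 of 7 genes of the renin-angiotensin system passed, with 4, 3 and 0 at an unadjusted p under 0.05, where 23.2% of all tested genes were. Gliogenic factors are here a list of genes that act in precursors of glia or drive them toward glia. Among 17 tested, 1 was higher, Sox2, with a log2 change of 0.59. Sox2 is also on the radial glia list, so this is the same call as the higher radial glia gene above. Over all tested genes, 7.6% were called for Hom against WT. For Het against WT, 0 of 17 gliogenic factors passed, against 5.83% of all tested genes.

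In adult Het PFC no member passed the threshold. Limma called 0 of 9 members for Het against WT, where it called 0.404% of all tested genes. A single member, Mlc1, had an unadjusted p under 0.05, as did 13.6% of all tested genes, and voom called 0 of 9. No member had groups without overlap, against 0.668% of all tested genes. The median log2 change was -0.02 over the members and 0.01 over all tested genes.

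**Figure D2:**
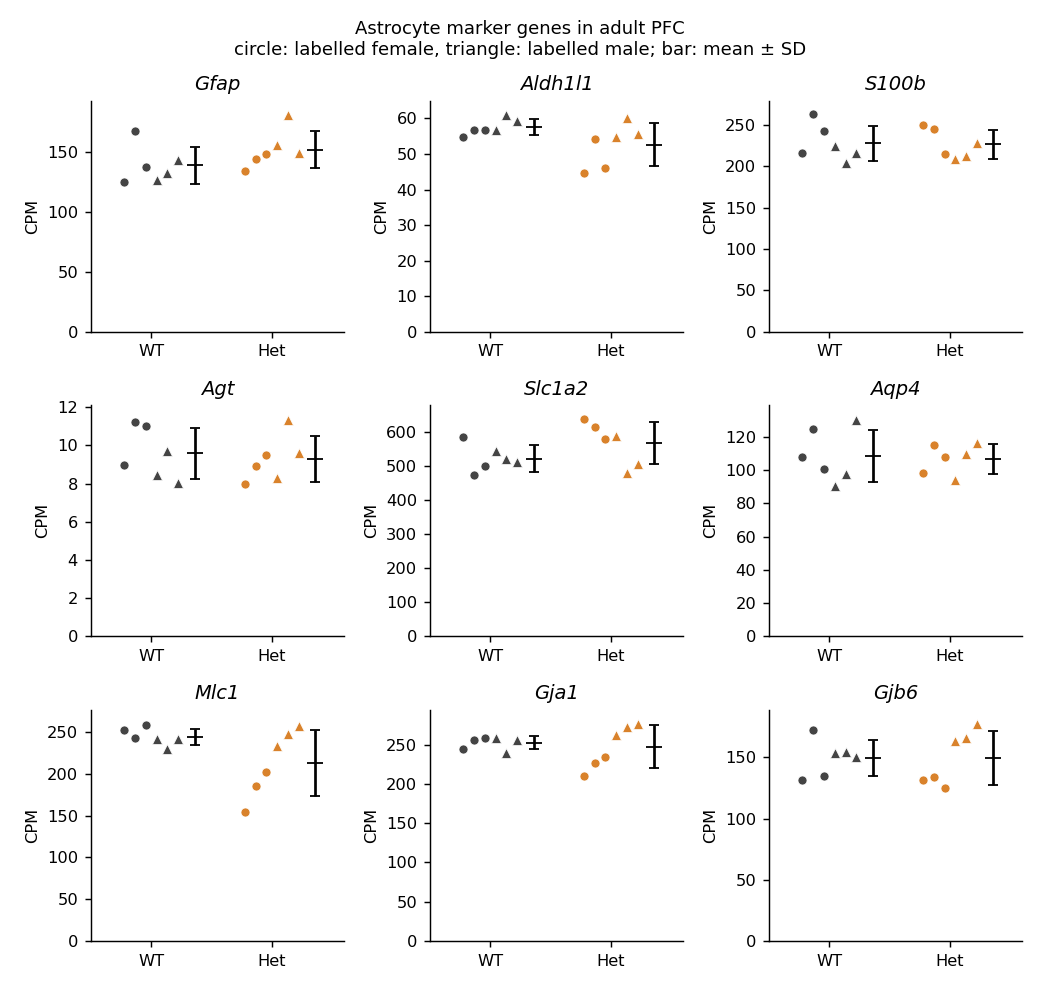
Levels in CPM (vertical axes, scales differ between panels) of the 9 members in adult PFC, by genotype (horizontal axis). Circles are libraries labelled female, triangles libraries labelled male, and bars give the mean and SD over 6 libraries. For Mlc1 the 3 Het females, at 155 to 202 CPM, lie below all 6 WT libraries, at 229 to 258, while the 3 Het males, at 234 to 258, lie among them.

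Mlc1 held 252 (F04), 243 (F06) and 258 CPM (F10) in WT females and 241 (M03), 229 (M07) and 242 CPM (M11) in WT males. In Het it held 155 (F02), 185 (F04) and 202 CPM (F07) in females and 234 (M05), 248 (M08) and 258 CPM (M09) in males. The Het females stood apart from all other PFC libraries, and the Het males did not. Of all tested genes, 22.3% had Het females without overlap with WT females, and no share was computed against all other libraries. Over both sexes the log2 change was -0.22 (SE 0.08, 95% interval -0.39 to -0.04), which failed the correction (limma adjusted p = 0.240). Mlc1 encodes the protein whose loss causes a leukodystrophy with cysts in humans, and it sits in endfeet with Hepacam, the adhesion protein GlialCAM.

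Slc1a2 held 585 (F04), 474 (F06) and 502 CPM (F10) in WT females, 639 (F02), 616 (F04) and 580 CPM (F07) in Het females, 512 to 545 CPM in WT males and 481 to 590 in Het males. It ran opposite to Mlc1 in females, with 2 of the 3 Het females above every WT library. The log2 change over both sexes was 0.12 (SE 0.06, 95% interval -0.01 to 0.25, limma adjusted p = 0.428).

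Gfap ranged from 125 to 167 CPM in WT with a median of 135, and from 134 to 180 in Het with a median of 149. In males the WT libraries held 127 (M03), 132 (M07) and 143 CPM (M11) and the Het libraries 155 (M05), 180 (M08) and 149 CPM (M09), without overlap. In females they overlapped, at 125, 167 and 137 CPM in WT and 134, 144 and 148 in Het. The log2 change over both sexes was 0.13 (SE 0.07, 95% interval -0.02 to 0.28, limma adjusted p = 0.430), and Het lay above the WT mean in 5 of 6 libraries.

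Gja1 and Gjb6 encode the connexins of astrocyte gap junctions. As for Mlc1, all Het males lay above all Het females, but the positions against WT differed between these genes. Gja1 held 244, 256 and 259 CPM in WT females and 210, 227 and 234 in Het females, but 259, 239 and 256 in WT males and 263, 273 and 277 in Het males. The Het females lay below all 6 WT libraries and the Het males above all 6. The share of all tested genes with such orders of Het males, Het females and WT was not computed. Over both sexes the log2 change was -0.04 (SE 0.06, 95% interval -0.16 to 0.08, limma adjusted p = 0.820). Gjb6 held 132, 172 and 135 CPM in WT females, 131, 134 and 125 in Het females, 154, 154 and 151 in WT males and 163, 166 and 177 in Het males. The males did not overlap and the females did, and the log2 change over both sexes was -0.01 (95% interval -0.15 to 0.13, limma adjusted p = 0.969).

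Aldh1l1 ranged from 54.7 to 61.1 CPM in WT with a median of 56.7, and from 44.5 to 60.2 in Het with a median of 54.4. The Het females, at 44.5, 54.1 and 46.1 CPM, lay below the WT females, at 54.7, 56.8 and 56.6. The log2 change over both sexes was -0.14 (SE 0.07, 95% interval -0.27 to 0.0021, limma adjusted p = 0.376), and 1 of 6 Het libraries lay above the WT mean.

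The remaining members had intervals that spanned 0. Aqp4 ranged from 90.6 to 130 CPM in WT and 93.9 to 116 in Het, with a log2 change of -0.02 (95% interval -0.18 to 0.15). S100b ranged from 204 to 263 CPM in WT and 209 to 250 in Het, with a log2 change of -0.01 (95% interval -0.13 to 0.12). Agt, which encodes the precursor of angiotensin and is made by astrocytes in the brain, ranged from 8.05 to 11.2 CPM in WT and 8.00 to 11.4 in Het, with a log2 change of -0.04 and a wider interval, -0.30 to 0.21. Their limma adjusted p-values were 0.955, 0.980 and 0.912.

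**Figure D3:**
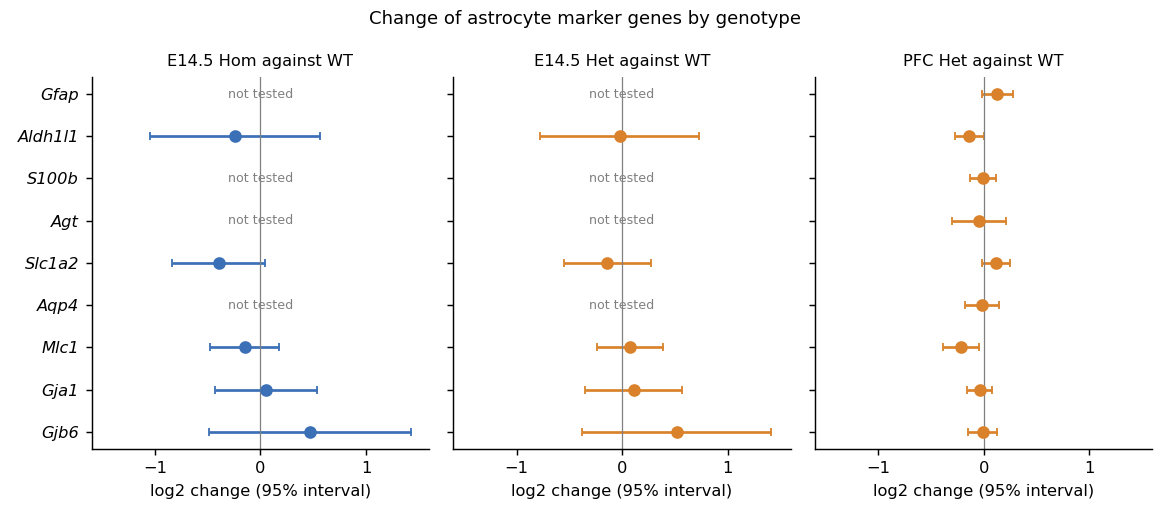
Log2 change (horizontal axis) of each member in 3 comparisons, with 95% intervals from limma. The PFC intervals are narrower than those at E14.5, and in the PFC only the interval of Mlc1, from -0.39 to -0.04, lies on 1 side of 0. Members that were not analysed or did not pass the filter in the embryo are marked as not tested.

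Whether the Het effect differed between the sexes was tested as an interaction, coded as the effect in males minus that in females. Limma called 0 of 9 members and 0.0% of all tested genes, with 1092 of 12870 genes, 8.48%, at an unadjusted p under 0.05 and 0 genes called by voom. Of the members, 3 had an unadjusted p under 0.05: Mlc1, Gja1 and Gjb6. The difference was 0.53 for Mlc1 (SE 0.12, 95% interval 0.29 to 0.78, limma adjusted p = 0.256). It was 0.29 for Gja1 (SE 0.10, limma adjusted p = 0.497), 0.30 for Gjb6 (SE 0.12, limma adjusted p = 0.530) and -0.24 for Slc1a2 (SE 0.12, limma adjusted p = 0.594). The difference was above 0 for 8 of 9 members and for 49.8% of all tested genes, with medians of 0.26 and -0.0013. Lists of other cell types leaned the same way, so this was not particular to astrocyte genes. The median was 0.26 over meningeal genes (7 of 10 above 0) and 0.17 over microglial genes (9 of 10). It was 0.17 over oligodendrocyte lineage genes (10 of 12), 0.02 over neuronal genes (7 of 12) and -0.18 over gliogenic factors (3 of 18). No member's difference passed the correction over the whole table.

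Fitted on libraries labelled female alone, 1 of 9 members was called, Mlc1, against 2.64% of all tested genes. Its log2 change was -0.48 (SE 0.09, limma adjusted p = 0.00626), and all 3 Het females lay below the 3 WT females. The call was lost without WT F10 (limma adjusted p = 0.0526), and without WT F04 Slc1a2 was called as well. Aldh1l1, Gja1 and Mlc1, 3 of 9 members, had females without overlap, against 22.3% of all tested genes. In males, 0 of 9 members were called, against 0.0155% of all tested genes, with 1 of 9, Gfap, at an unadjusted p under 0.05, against 4.42% of all tested genes, and a log2 change of 0.26 (limma adjusted p = 0.998). Gfap, Gja1 and Gjb6, 3 of 9, had males without overlap, against 9.54% of all tested genes. A call in females and none in males does not show a difference between the sexes, and the interaction above did not pass.

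**Figure D4:**
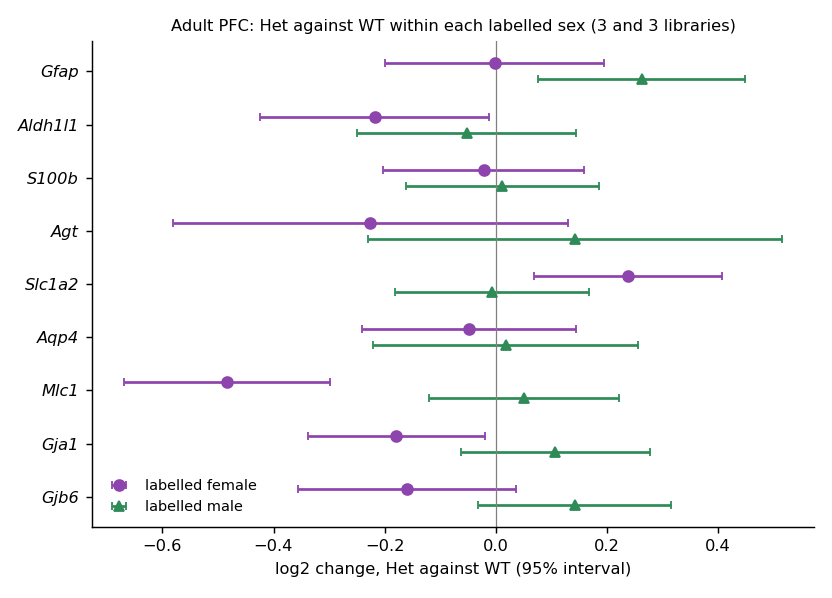
Log2 change of Het against WT (horizontal axis) in PFC libraries labelled female and in those labelled male, for each member, with 95% intervals from limma. Mlc1 stands at -0.48 in females and 0.05 in males, and Slc1a2 at 0.24 and -0.01.

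Identifier prefixes in the labels, whose meaning is not stated, were unevenly spread: 14308 holds males only and 14111 the single library WT F04. With the prefix as a covariate the sex difference of Mlc1 was 0.53 (limma adjusted p = 0.193), that of Gja1 0.31, that of Gjb6 0.37 and that of Slc1a2 -0.33, and 0 of 9 members were called. Within the prefix 14309, Mlc1 held 243 and 258 CPM in the WT females F06 and F10 and 155, 185 and 202 CPM in the Het females. These are part of the female libraries above that did not overlap, so their lack of overlap is no further check.

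Sums of some other gene groups set the Het females apart, while the sums of the members and of the 28 other astrocyte genes did not. The members summed to 1670, 1730 and 1666 CPM in the Het females and to between 1651 and 1776 elsewhere. The other astrocyte genes summed to 16975, 19299 and 18421 CPM, against 17624 to 21697 elsewhere. Of all tested genes, 22.3% had Het and WT females without overlap, a share for single genes and for females only. No such share was computed for sums or against all other libraries. The 16 endfoot and junction partners summed to 813, 841 and 811 CPM in the Het females and to between 907 and 1013 in the other 9 libraries. The 18 gliogenic factors summed to 813, 763 and 740 CPM in the Het females and to between 599 and 682 elsewhere. The 6 listed choroid plexus genes summed to 219, 233 and 225 CPM in the Het females and to between 234 and 285 elsewhere. Of the 28 other astrocyte genes 0 were called, and 22 of 28 had a sex difference above 0, against 49.8% of all tested genes. Their median difference was 0.26, with 11 at an unadjusted p under 0.05 against 8.48% of all tested genes. The sum of 12 neuronal genes ranged from 11467 to 12136 CPM in Het females and from 11744 to 12188 in WT females, and that of 10 microglial genes from 665 to 741 and 757 to 808. The part of these groups in the values of Mlc1 and the connexins was not tested.

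Hepacam, named here after its values were seen, ranged from 12.7 to 65.9 CPM in WT PFC and from 11.9 to 44.3 in Het, with a log2 change of -0.99 (SE 0.46, limma adjusted p = 0.387). For Het against WT in the PFC, 0 of 14 endfoot partners, 0 of 10 reactive astrocyte genes, 0 of 8 renin-angiotensin genes, 0 of 18 gliogenic factors and 0 of 28 other astrocyte genes passed, with 1, 1, 3, 4 and 2 at an unadjusted p under 0.05, where 13.6% of all tested genes were.

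Across the 12 PFC libraries the members did not vary as a single block. Pearson's r of log2 levels between pairs of members ran from -0.75, for Mlc1 and Slc1a2, to 0.90, for Mlc1 and Gja1, with a median of 0.19 over 36 pairs. Of the 8 pairs with Slc1a2, 7 were negative, against 4 of the 28 other pairs. Each member was also set against the mean of the other 8 in z-scores: r was 0.68 for Gja1, 0.64 for Gjb6, 0.54 for Gfap and for Mlc1, 0.52 for Aldh1l1, 0.50 for Agt, 0.33 for Aqp4, -0.10 for S100b and -0.89 for Slc1a2. These values share the libraries and the authors' adjustment, cover both genotypes and sexes, and are a description.

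**Figure D5:**
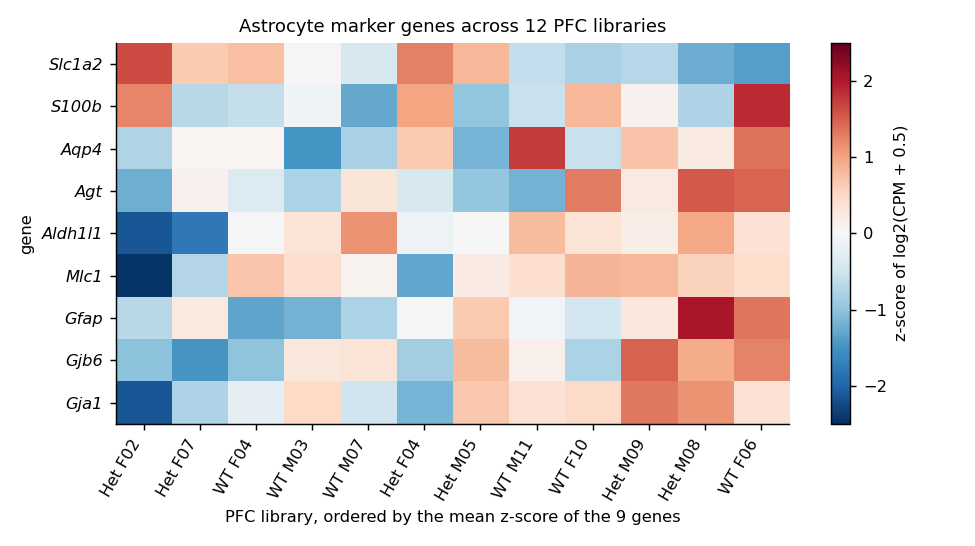
Level of each member (rows) in each of the 12 PFC libraries (columns), as z-scores of log2(CPM + 0.5) over the libraries. Slc1a2 runs opposite to Mlc1 and Gja1, and the Het females F02 and F07 hold the lowest mean z-scores, -0.84 and -0.49.

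The 10 genes outside the set whose PFC pattern was most like the members' mean, of 10261 ranked, were Eif2b4 (r = 0.90), Blvrb (0.89), Oat (0.88), Mpi (0.88), Trem2 (0.87), Scarb2 (0.87), Lgi3 (0.85), Grn (0.85), Csdc2 (0.85) and Gpaa1 (0.85), over 12 libraries. Of 27 ranked genes among the other astrocyte genes, 21 had a positive r, against 50.4% of all ranked genes. The median r of the 27 was 0.57, beside 0.00 over all ranked genes. This likeness was not particular to astrocyte genes. Among ranked meningeal genes, r was 0.72 for Slc22a6, 0.59 for Col1a2, 0.57 for Col1a1 and Slc6a13, 0.55 for Aldh1a2, 0.34 for Ogn and 0.12 for Dcn.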

How the data were processed

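RNA was measured by sequencing, with libraries prepared by the SMARTer Ultra Low kit per the labels' protocols. The tools named in the submitters' processing notes are HTSeq, STAR, Bowtie2 and Trimmomatic, with build mm10; the sources used here give neither their roles and versions nor a strand setting. The authors deposited log2 values per gene and library, adjusted by RUVr, a step that removes estimated unwanted variation; read from the values, they are log2 CPM with a prior count and a common upper quartile. The values gave whole numbers within 0.01 in all 28 libraries, but these are adjusted numbers, not raw reads. Totals ran from 27827467 to 30811856 in E14.5 libraries and from 19601294 to 21275162 in PFC libraries. No column of per-sample values was left unused.

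CPM was recovered, and log2(CPM + 0.5) was tested with limma 3.58.1 in R 4.3.3, with trend and robust settings, for genotype with labelled sex as covariate, over all libraries of a tissue. Fold changes on this scale understate changes of low genes. P-values were adjusted by Benjamini-Hochberg over all tested genes, and a gene passed under 0.05. RUVr had emptied 2 directions of variation at E14.5 and 1 in the PFC. The main fits and those within a sex made no allowance for this, so their p-values may be too small. The script was tested on simulated data. The members and the gene lists were chosen with earlier results of these data known. By rule, genes named were the 9 members, Myt1l, up to 4 called genes of each list per comparison and the 10 most alike genes. Outside this rule, Hepacam, Rbfox3, Mbp, Pax6, the genes that overlap members and the ranked meningeal genes were named too. Alternatives included other pseudocounts, filters and scalings, voom, covariates, subsets by sex, and leaving out each library.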

Additional observations from a re-analysis of the deposited data

Results flagged for a closer look

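In 3 of 39 groups checked, 1 library lay farther from the rest than the others lay from each other by Dixon's criterion, and chance gives about 1 in 20. Gfap in Het F07 at E14.5 was listed at 0.870 CPM against 0 to 0.170 in the other 5 Het libraries. Slc1a2 in WT M03 at E14.5 was 12.6 CPM against 7.66 to 9.31 in the other 5 WT libraries. Mlc1 in Het M11 at E14.5 was 13.3 CPM against 11.5 to 12.0 in the other 5 Het libraries.

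For 2 of 9 members, every Het male moved above the male WT mean and every Het female below the female WT mean in the PFC: Gjb6, with a sex difference of 0.30 on the log2 scale, and Gja1, with a difference of 0.29. Neither passed the correction in limma (adjusted p = 0.530 and 0.497). This rule was checked for the 9 members only, so no share over all tested genes can be set beside the count.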

How the results depend on the processing

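Member calls held under the alternatives run for both tissues, except that 1 member, Mlc1, was called for Het against WT in libraries labelled female alone. In that fit the count ran from 0 to 2 when 1 library was left out, an alternative chosen after seeing the data. No member's change reversed while called, and the sex difference of Mlc1 ran from 0.43 to 0.62, with a lowest limma adjusted p of 0.0609, without Het F07. Counts over all genes were less stable. With the directions emptied by RUVr as covariates, Hom against WT went from 944 to 511 genes, Het against WT from 724 to 335 and the PFC from 52 to 17. Without trend and robust they were 468, 225 and 0. Leaving out 1 library gave 489 (Hom F04) to 1099, 131 (Het F07) to 1177 (Het M07) and 3 (Het F04, Het F07, WT F04 or WT M11) to 127 (Het M09). The PFC count was 19 with prefix, 1 by voom, 2 without sex, 340 in females and 2 in males, and the Het embryo count was 379 within the 2 groups and 1086 without Het F10 and Het M11. The sex difference called 0 genes, but 13 without WT F06, 2 without Het F07 and 1 with a GC and length correction, none of them a member. The 1 gene called for Hom against Het was Myt1l itself, with a log2 change of -1.04 (limma adjusted p = 0.0382). This call was lost under several settings, voom and the emptied directions among them. Centring moved the higher and lower calls from 401 and 543 to 294 and 746 in Hom, and from 353 and 371 to 213 and 509 in Het. The cause was not tested. No paired analysis was possible because a number shared between groups (F04 in the PFC, F04 and F09 in WT and Hom embryos) stands under a different identifier prefix in each group and so names different animals; the prefix as a covariate changed no member's call. Depth is unknown, and Gfap at E14.5 lies near the smallest step of the table.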
